A study of Homo sapiens with 60 samples.

Results

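NR0B2 and 8 genes around it were followed across all 60 RNA-seq libraries. They are the genes of the receptors NR0B2, NR1H4, NR1I2, NR5A2, NR1H3 and HNF4G, of both subunits of the bile acid exporter, SLC51A and SLC51B, and of the hormone FGF19. These 9 members are among 60675 gene IDs in the table, and 8 of them reached 0.5 CPM (counts set to one library size) in at least 3 libraries and so belong to the 16022 genes tested. NR0B2 was chosen by its own measured level, which fell steeply with Coptidis Rhizoma, so its values with that extract are given as a description with no test. The other 8 were picked for their roles, with earlier results of these data known.

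The cells were HT29, a human colorectal adenocarcinoma line, with no genetic change named in the labels. They received an ethanol extract for 24 h, or DMSO vehicle alone, which the sample labels give as 0.1% and the series design as 2%. Coptidis Rhizoma was used at 12.8, 64 and 320 µg/mL, Bupleuri Radix at 12.4, 62 and 310 µg/mL, and the other extracts at 20, 100 and 500 µg/mL, here called low, medium and high dose. The other extracts were the single herbs Zizyphi Fructus, Citri Unshius Pericarpium, Cimicifugae Rhizoma and Aconiti Lateralis Radix Preparata and the formulas Yijung-tang and Banhasasim-tang. There were 2 libraries a dose for Coptidis Rhizoma, for Zizyphi Fructus and for Yijung-tang, 1 for Banhasasim-tang, and 3 for each of the remaining 4 extracts and for vehicle. By their labels the libraries fall into numbered sets, each with a pair of extracts, and vehicle has a set to itself. High against low dose is therefore a comparison within a set, whereas in any comparison with vehicle the set and the treatment cannot be told apart. The labels do not describe the libraries as separate cultures, so the p-values measure only the spread between these libraries.

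Bile acids are detergents made from cholesterol in the liver and recovered by the gut, and cells that meet them sense them with nuclear receptors. NR1H4 encodes FXR, the main bile acid receptor; once active it turns on NR0B2, the transporter genes SLC51A and SLC51B, and, in the ileum, FGF19, a hormone that restrains bile acid synthesis in the liver. NR0B2 encodes SHP, an unusual receptor with no DNA-binding domain, which represses other receptors, among them LRH-1, the product of NR5A2. NR1I2 encodes the xenobiotic receptor PXR, NR1H3 the oxysterol receptor LXR-alpha, and HNF4G an HNF4 receptor of the gut epithelium.

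Total counts ran from 18.1 to 36.7 M per library with a median of 24.1 M, so 3 counts, the floor used here, stood for 0.0817 to 0.166 CPM. Vehicle libraries had all 12 colon epithelium markers at 0.5 CPM or more and none of 6 hepatocyte markers. The summed level of the 12 colon markers was 8870 to 8890 CPM at high Coptidis Rhizoma, 10700 to 10800 CPM at its low dose, and 11900 to 14000 CPM in vehicle. KRT8 and KRT18 carried most of that sum, and its members differed in direction, with KRT8 at 4130 CPM against 5360 CPM at low dose, and LGALS4 at 775 CPM against 563 CPM. GPA33 (0.142 CPM against 5.34 CPM), CEACAM5 (1.22 CPM against 5.89 CPM), VIL1 (87.4 CPM against 185 CPM), KRT18, CDX1, CDH17 and CDH1 were also lower. KRT20 (357 CPM against 248 CPM), CDX2 and EPCAM were also higher. Mitochondrial ribosomal RNA took 1.565 and 1.64% of counts at high Coptidis Rhizoma, 9.79 and 10.5% at its low dose, and 1.07 to 1.15% in vehicle. Replicate 3 of medium-dose Zizyphi Fructus stood apart, with 41.8% of its counts from mitochondrial genes. The part of these differences in the results was not tested, except that the calls with Coptidis Rhizoma were the same with mitochondrial genes left out. In bulk RNA, fewer cells of a kind and less RNA per cell cannot be told apart.

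Receptors of this group bind copies of a half-site, AGGTCA, singly or in pairs. RefSeq promoters (GRCh38.p14, 250 bases before to 50 after a gene's start) were found for 6 of the 9 members. Both strands were searched for AGGTCA, which 13.8% of 35116 promoters hold. That share is per promoter and not per gene: NR1H3 had 4 promoters listed, NR5A2 and NR1I2 2 each, and NR1H4, SLC51A and SLC51B 1 each. AGGTCA occurred in 1 promoter each of NR5A2, NR1H4, NR1H3 and SLC51B, and not in the promoters listed for NR1I2 and SLC51A. The windows around it are printed for the 3 receptor genes whose levels moved with Coptidis Rhizoma, with the half-site in capitals; the 5′ to 3′ strand shown is the plus strand, which is also the strand of all 3 genes.
NR5A2, chr1:200027614-200027643: atggtttacagcAGGTCActaatgttggaa
NR1H4, chr12:100503110-100503175: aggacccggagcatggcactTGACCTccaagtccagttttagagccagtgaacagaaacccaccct
NR1H3, chr11:47248120-47248205: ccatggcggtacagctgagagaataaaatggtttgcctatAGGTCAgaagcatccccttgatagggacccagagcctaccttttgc
Counted from the start site of its RefSeq promoter entry, the half-site begins at position -84 in NR5A2 and -140 in NR1H3, and in NR1H4 it lies on the minus strand at -230. A gene can have several such start sites: the windows of NR5A2 and NR1H4 lie inside the span that GENCODE 29 gives the gene, and that of NR1H3 before it. The NR5A2 window is cut to 30 bases because it lies in an exon of another transcript in GENCODE 29. The longer word CAAGGTCA, held by 1.28% of all promoters, overlaps the half-site and was in no member promoter. The half-site paired with its own reverse complement 1 base away, the form known for FXR, was in none of the member promoters and in 0 of the 35116. A match is a description of letters, and no binding was measured.

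NR0B2 (ENSG00000131910, GRCh38 chromosome 1, 26911489 to 26913966, minus strand) fell to the edge of detection at high Coptidis Rhizoma. The libraries at high dose held 2 and 4 counts, or 0.075 and 0.167 CPM. Those at medium dose stood at 2.42 and 2.87 CPM, those at low dose at 4.85 and 3.75 CPM, and vehicle at 5.96, 4.97 and 5.02 CPM. No library of the high dose came near one of another dose, and both medium-dose libraries lay below all those of low dose and vehicle. Summed over libraries, 6 counts at high dose against 205 at low dose gave a level 36-fold lower (95% counting interval 16.3 to 99.3). Against the 455 counts of vehicle the level was 44.3-fold lower (20.2 to 121). Both intervals cover counting error only and not the spread between libraries. They are no test, since the gene was chosen by this fall. The fitted log2 difference was -5.12 from low dose, and 34 of the 16022 tested genes had a lower one. The gene lies inside the span of NUDC on the opposite strand, but they share no exon bases. NUDC, a nuclear movement protein gene, stood at 105 ± 3.1 CPM at high dose, 188 ± 2.6 CPM at low dose (SD, n = 2 each) and 210 ± 21 CPM in vehicle (n = 3).

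**Figure D1:**
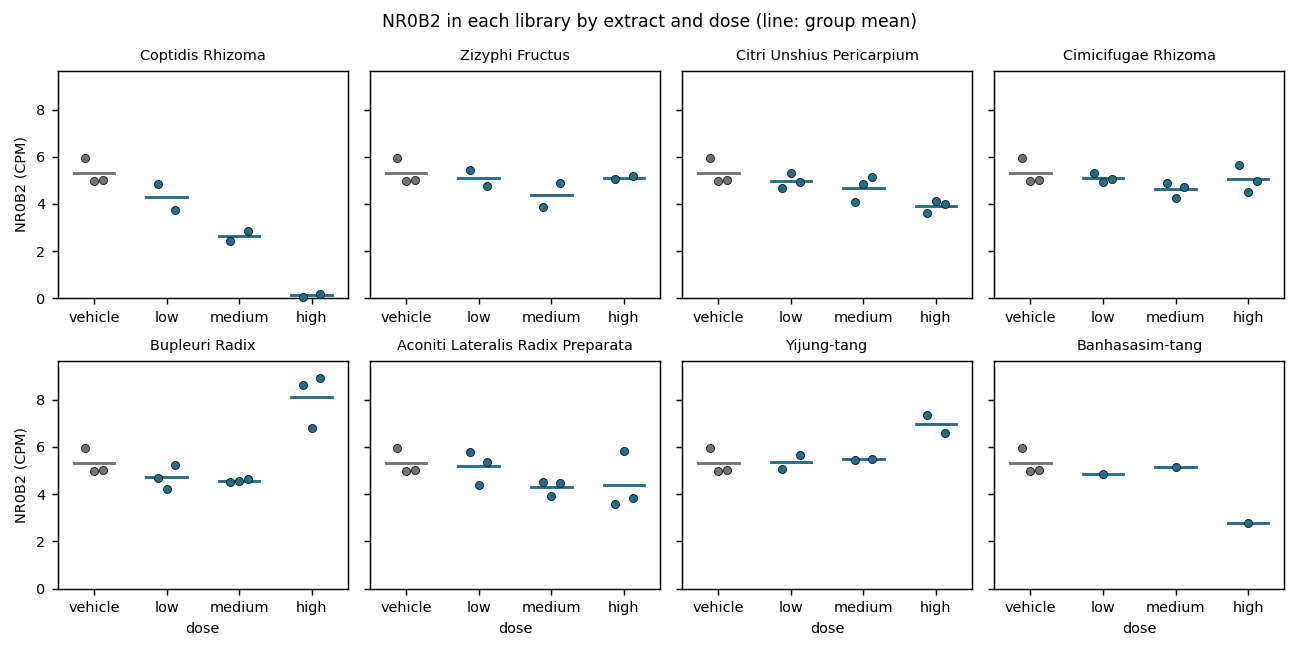
NR0B2 level in CPM (vertical axis from 0) in every library, by dose (horizontal axis), with 1 panel per extract; grey points are the 3 vehicle libraries, repeated in each panel, and lines are group means. Coptidis Rhizoma drops to 0.121 CPM at high dose, and high-dose Bupleuri Radix has the highest mean, 8.13 CPM.

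Across the 25 groups the mean NR0B2 level ran from 0.121 CPM to 8.13 CPM, and vehicle ranked 21 from the lowest. In that order 21 of 24 neighbouring groups overlapped in their libraries. The steps without overlap stood above high-dose Coptidis Rhizoma, above high-dose Banhasasim-tang and below high-dose Yijung-tang. So the middle of the order, from high-dose Citri Unshius Pericarpium at 3.92 CPM to medium-dose Yijung-tang at 5.47 CPM, has no neighbours that differ beyond their spread.

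In the other 7 extracts NR0B2 was tested like any other gene, with edgeR's quasi-likelihood test and Benjamini-Hochberg adjustment over all tested genes, as are all adjusted p-values here. High-dose Bupleuri Radix gave 8.63, 6.82 and 8.93 CPM, against 4.70, 4.23 and 5.22 CPM at its low dose. All 3 high-dose libraries lay above every library of low dose and vehicle. The log2 difference was 0.78 ± 0.13 from low dose (SE, adjusted p = 2e-05) and 0.62 ± 0.13 from vehicle (adjusted p = 0.00025). Yijung-tang at high dose had 7.38 and 6.58 CPM, against 5.05 and 5.66 CPM at low dose, a difference of 0.38 ± 0.16 that did not pass (adjusted p = 0.64).

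Outside Coptidis Rhizoma, NR0B2 passed as lower than vehicle at the high dose of 2 extracts. Of the 24 treated groups, 10 lay wholly below the vehicle libraries. Among them were all doses of Coptidis Rhizoma and the single libraries of low- and high-dose Banhasasim-tang. This count was not made for genes outside the members, and vehicle is a set of its own. The single high-dose library of Banhasasim-tang had 2.79 CPM, the low-dose library 4.84 CPM. That library was lower than vehicle by 0.92 ± 0.21 on the log2 scale (adjusted p = 0.0031) and lower than high-dose Yijung-tang by 1.32 ± 0.22 (adjusted p = 8.9e-05), whereas the difference from its own low dose, -0.79 ± 0.25, did not pass (adjusted p = 0.12). A group of 1 library has no spread of its own and was assumed to vary like the others. Citri Unshius Pericarpium at high dose had 3.63, 4.11 and 4.02 CPM, against 4.69, 5.31 and 4.91 CPM at low dose. Its difference from vehicle passed (-0.43 ± 0.14, adjusted p = 0.03) but not that from low dose (-0.34 ± 0.14, adjusted p = 0.60). The call against vehicle was lost without vehicle replicate 1 or without any of the 3 high-dose libraries, with adjusted p up to 0.22, and with no filter on low counts or only the compared groups fitted (adjusted p up to 0.058). In Aconiti Lateralis Radix Preparata NR0B2 did not pass with all libraries, but without replicate 2 of the high dose it was lower than low dose (-0.49, adjusted p = 0.042) and vehicle (-0.52, adjusted p = 0.0078).

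Of the 7 other tested members, 4 passed from low to high Coptidis Rhizoma, 1 higher and 3 lower, and the same count passed against vehicle. This extract moved most genes: 56.2% of all tested genes passed from low to high dose and 62.9% against vehicle. A share of 4 in 7 is therefore near the background and says nothing particular about these members. What differs among them is the size and the sign.

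NR5A2 (ENSG00000116833, chromosome 1, 200027602 to 200177424) rose the most. Its level was 25.9 and 27.9 CPM at high dose, against 9.83 and 9.77 CPM at low dose and 7.79, 8.75 and 9.06 CPM in vehicle. Both high-dose libraries lay far above the rest, and medium dose, at 11.1 and 12.1 CPM, also lay above all of low dose and vehicle. The log2 difference was 1.46 ± 0.12 from low dose (adjusted p = 2.5e-13) and 1.65 ± 0.11 from vehicle (adjusted p = 8.7e-17), a level 2.74-fold that of low dose. Among all tested genes this change from low dose sits at the percentile 96.4. NR0B2 fell and NR5A2 rose at this dose, and whether the changes are linked was not tested. At high-dose Bupleuri Radix both genes were above vehicle, by 0.62 for NR0B2 and 0.50 for NR5A2.

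NR1H4 (ENSG00000012504, chromosome 12, 100473708 to 100564413), the FXR gene, was barely transcribed in HT29 in any condition. Its group means ran from 0.040 to 0.766 CPM. At high Coptidis Rhizoma each library held 1 count, against 10 and 12 counts at low dose, 18 and 15 at medium dose, and 11, 10 and 7 in vehicle. The high-dose libraries were the lowest of all, at a level 11.6-fold lower than low dose with a wide counting interval (2.85 to 102). The fitted difference passed (-3.37 ± 0.75 from low dose, adjusted p = 0.00018; -2.90 ± 0.74 from vehicle, adjusted p = 0.00079). The size of this fitted change depends on how so few counts are smoothed, and the counting interval is the better guide to it.

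NR1I2 (ENSG00000144852, chromosome 3, 119780484 to 119818485), the PXR gene, never reached 0.5 CPM and was not tested. It had 0 counts in both high-dose Coptidis Rhizoma libraries, against 4 and 2 at low dose, 7 and 9 at medium dose, and 4, 7 and 8 in vehicle. With high dose set at the floor of 3 counts over the group, its level was 2.11-fold lower than low dose. It was 5.18-fold lower than medium dose and 3.7-fold lower than vehicle, with no counting error included. With the counting error of both groups included, the lower 95% limits are 1.24-fold for low dose, 3.74-fold for medium dose and 2.72-fold for vehicle. Of its exon bases 4.07% are shared with AC069444.2 on the same strand, so a few of its reads may belong to that gene.

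NR1H3 (ENSG00000025434, chromosome 11, 47248300 to 47269032), the LXR-alpha gene, fell by a modest step. High-dose Coptidis Rhizoma had 35.7 and 37.7 CPM, against 52.6 and 50.2 CPM at low dose and 55.4, 50.8 and 45.9 CPM in vehicle. High dose did not overlap with either, and the difference from low dose was -0.49 ± 0.07 (adjusted p = 1.5e-07). Its exons share 4.17% of their bases with ACP2, a lysosomal phosphatase gene on the opposite strand, which stood at 29.5 ± 0.38 CPM at high and 32.96 ± 1.8 CPM at low dose. HNF4G (ENSG00000164749, chromosome 8, 75407914 to 75566843) had 44.1 and 43.5 CPM at high dose, against 58.4 and 58.6 CPM at low dose and 51.4, 56.3 and 59.1 CPM in vehicle. The difference from low dose was -0.42 ± 0.09 (adjusted p = 0.00022), with no overlap between the doses.

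**Figure D2:**
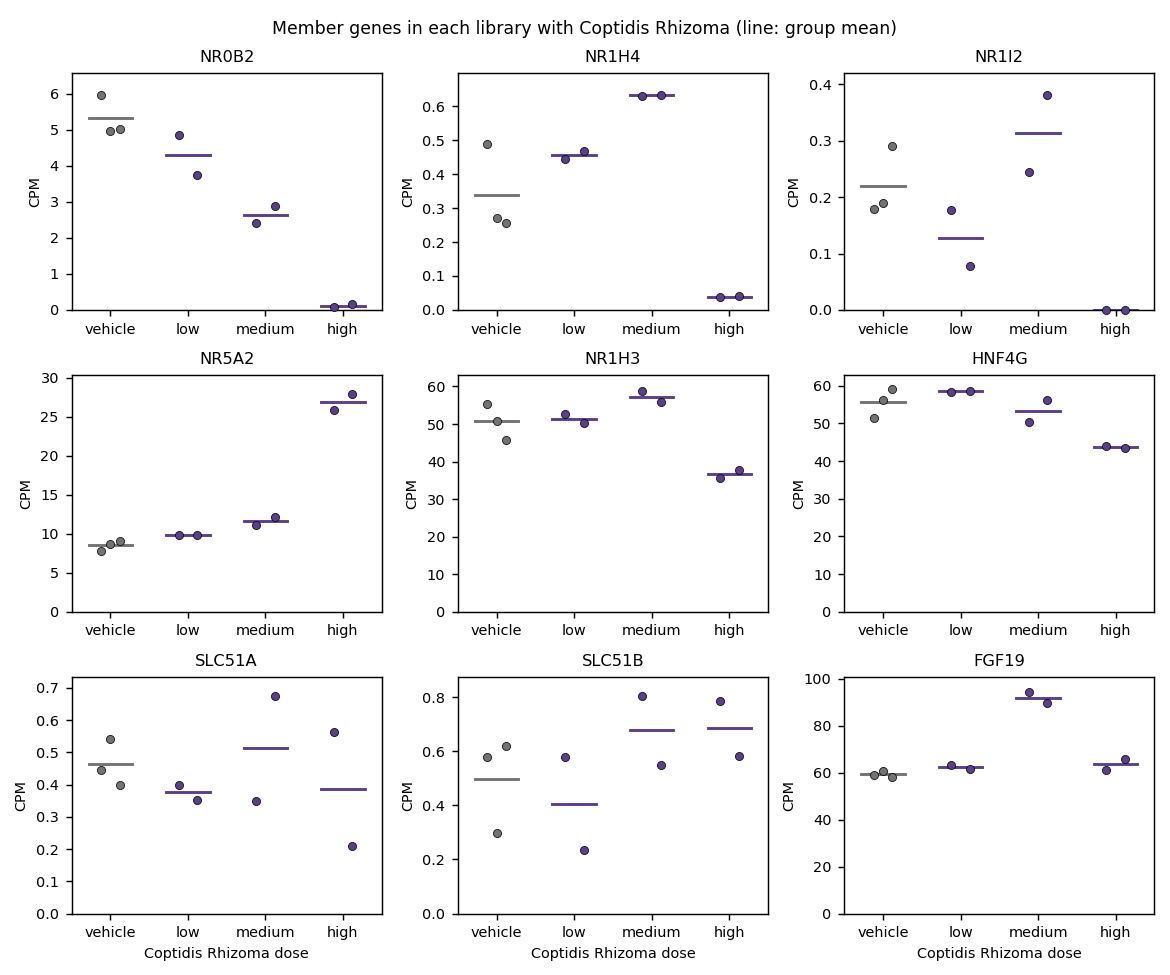
Levels of the 9 member genes in CPM (vertical axes from 0, scaled per gene) in vehicle and at the low, medium and high dose of Coptidis Rhizoma; points are libraries and lines group means. NR0B2, NR1H4 and NR1I2 are near 0 at high dose, NR5A2 reaches 26.9 CPM, and FGF19 is highest at medium dose.

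SLC51A (ENSG00000163959, chromosome 3, 196211487 to 196243178) and SLC51B (ENSG00000186198, chromosome 15, 65045370 to 65053396) encode the subunits of the exporter that passes bile acids from the enterocyte to the blood. Both were near the limit of detection. SLC51A had 15 and 5 counts at high Coptidis Rhizoma, 9 and 9 at low dose, and 10, 20 and 11 in vehicle, and its groups overlapped. SLC51B had 21 and 14 counts at high dose, 13 and 6 at low dose, and 13, 11 and 17 in vehicle. Neither passed: the log2 difference from low dose was 0.06 for SLC51A (95% interval -0.82 to 0.95) and 0.78 for SLC51B (-0.21 to 1.77). Of the 24 tests made for each gene over the comparisons reported here, none passed in edgeR with all libraries or in DESeq2, and at an unadjusted p under 0.05 there were 4 for SLC51A and 0 for SLC51B. Without the library that stands apart, SLC51A passed as higher than vehicle at high dose in Aconiti Lateralis Radix Preparata (log2 difference 0.78, adjusted p = 0.039) and in Banhasasim-tang (1.12, adjusted p = 0.037). In Aconiti Lateralis Radix Preparata it also passed without replicate 3 of the high dose (0.98, adjusted p = 0.045). SLC51A shares 7.35% of its exon bases with PCYT1A and SLC51B 6.38% with RASL12, both on the opposite strand. PCYT1A, a phosphatidylcholine synthesis gene, stood at 120 ± 0.58 CPM at high dose and 81.5 ± 0.080 CPM at low dose; the strand setting used in counting is not given.

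FGF19 (ENSG00000162344, chromosome 11, 69698232 to 69704642, minus strand) took another course. With Coptidis Rhizoma it was highest at medium dose, at 94.1 and 89.6 CPM, against 63.2 and 61.6 CPM at low dose. High dose, at 61.2 and 65.7 CPM, overlapped with low dose. The rise from low to medium dose was 0.56 ± 0.12 (adjusted p = 0.0043), in a comparison where 1.35% of all genes passed. This comparison was added after the FGF19 values were seen, so its adjusted p is no support for a rise. The call was also lost without medium replicate 2, low replicate 2 or low replicate 3. From low to high dose the difference was 0.02 (95% interval -0.21 to 0.26).

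**Figure D3:**
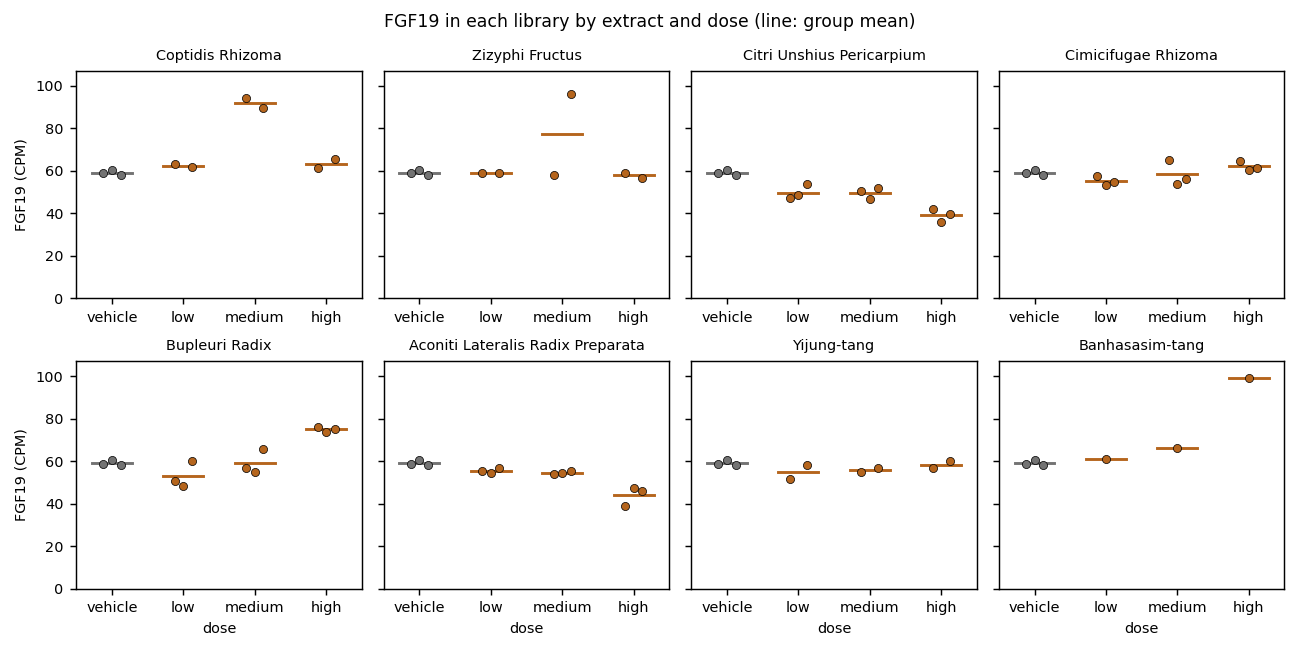
FGF19 level in CPM (vertical axis from 0) in every library, by dose (horizontal axis), with 1 panel per extract; grey points are the vehicle libraries, repeated in each panel, and lines are group means. Means range from 39.2 CPM at high-dose Citri Unshius Pericarpium to 99.3 CPM in the 1 library of high-dose Banhasasim-tang.

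FGF19 also moved with other extracts, in both directions. Bupleuri Radix at high dose had 75.9, 73.7 and 75.3 CPM, against 50.8, 48.5 and 60.2 CPM at low dose. High dose lay above every low-dose and vehicle library, with log2 differences of 0.49 ± 0.10 from low dose (adjusted p = 0.00025) and 0.34 ± 0.10 from vehicle (adjusted p = 0.0071). The high-dose library of Banhasasim-tang, at 99.3 CPM against 60.8 CPM in its low-dose library, was the highest of all groups (0.71 ± 0.17 from low dose, adjusted p = 0.012). Citri Unshius Pericarpium at high dose had 42.0, 36.1 and 39.6 CPM and Aconiti Lateralis Radix Preparata 38.9, 47.4 and 45.9 CPM, against 58.8, 60.5 and 58.2 CPM in vehicle. Both lay below all vehicle libraries, by -0.59 ± 0.10 for Citri Unshius Pericarpium (adjusted p = 0.00012) and -0.42 ± 0.10 for Aconiti Lateralis Radix Preparata (adjusted p = 0.0021). From low to high dose neither passed (adjusted p = 0.17 and 0.057), although their doses did not overlap. Both passed with no filter on low counts (adjusted p = 0.0058 for Citri Unshius Pericarpium and 0.0019 for Aconiti Lateralis Radix Preparata), without the library that stands apart (0.0047 and 0.0013) and with only the compared groups fitted (0.024 and 0.0019). Aconiti Lateralis Radix Preparata also passed with DESeq2 (adjusted p = 0.03) and without replicate 2 of its high dose (adjusted p = 0.049).

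Over the 7 other extracts, 5 of 56 pairs of extract and member passed from low to high dose, all in Bupleuri Radix and Banhasasim-tang. In Bupleuri Radix they were NR0B2 and FGF19, both higher. In Banhasasim-tang FGF19 and NR1H3 were higher (NR1H3 64.6 CPM against 46.7 CPM, 0.47 ± 0.10, adjusted p = 0.0032) and HNF4G was lower (43.5 CPM against 61.5 CPM, -0.50 ± 0.13, adjusted p = 0.037). The share of all genes that passed was 12.9% in Bupleuri Radix, 1.73% in Banhasasim-tang, 2.71% in Aconiti Lateralis Radix Preparata, 0.874% in Cimicifugae Rhizoma, 0.206% in Yijung-tang, 0.144% in Citri Unshius Pericarpium and 0% in Zizyphi Fructus. In these last 5 no member passed in edgeR; members at an unadjusted p under 0.05 numbered 2, 1, 3, 2 and 0, and DESeq2 called 1, in Aconiti Lateralis Radix Preparata. For Zizyphi Fructus, edgeR and DESeq2 called 0 genes in all and 331 had an unadjusted p under 0.05. Without the medium-dose Zizyphi Fructus library that stands apart, the 5 pairs became 9. The shares above are with all libraries, so the 9 has no share of all genes beside it. The high-dose library of Banhasasim-tang also had 10.2% of its counts from mitochondrial ribosomal RNA, against 1.11% at low dose; with mitochondrial genes left out its calls were the same. With no filter on low counts its NR1H3 call was lost (adjusted p = 0.064).

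**Figure D4:**
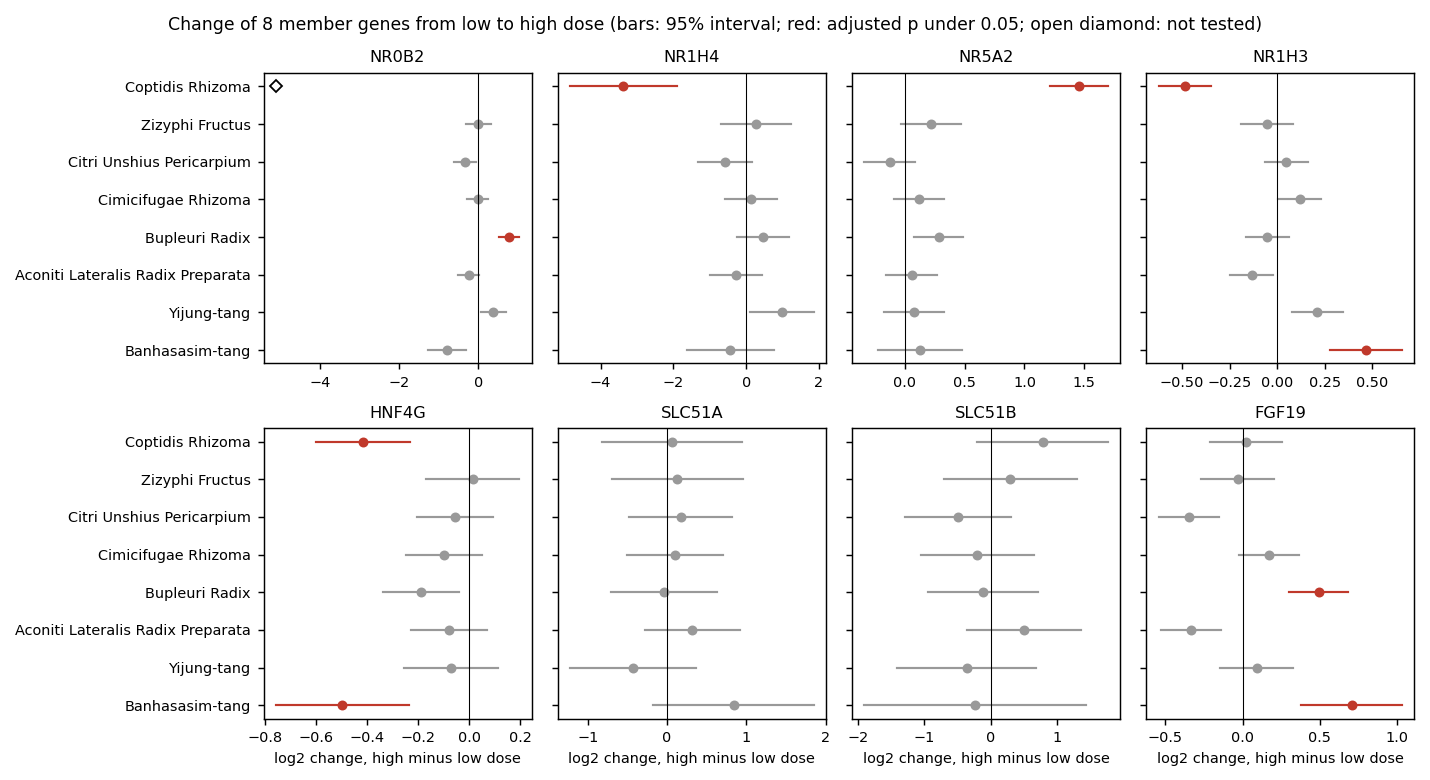
Log2 difference of high minus low dose (horizontal axes, scaled per gene) for the 8 tested members, with extracts down the page; bars are 95% intervals of the edgeR fit, red marks an adjusted p under 0.05, and the open diamond is NR0B2 with Coptidis Rhizoma, which was not tested. Red points stand in 3 extracts, Coptidis Rhizoma, Bupleuri Radix and Banhasasim-tang.

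Against vehicle 14 of the 56 pairs passed, and 25 without the library that stands apart. The shares of all genes given here are with all libraries, so the 25 has no such share beside it. All these comparisons share the same 3 vehicle libraries. The share of all genes that passed was 27% in Bupleuri Radix, 18% in Cimicifugae Rhizoma, 17.3% in Aconiti Lateralis Radix Preparata, 13.2% in Citri Unshius Pericarpium, 7.65% in Yijung-tang, 7.6% in Banhasasim-tang and 6.9% in Zizyphi Fructus. With all libraries no member passed in Yijung-tang in edgeR or DESeq2, with 3 at an unadjusted p under 0.05. Without the library that stands apart, 3 passed there in edgeR as higher. They were NR0B2 (0.40, adjusted p = 0.029), NR1H4 (1.22, adjusted p = 0.028) and NR5A2 (0.28, adjusted p = 0.035). NR5A2 had its lowest mean in vehicle, 8.53 ± 0.66 CPM, and 22 of the 24 treated groups lay wholly above the vehicle libraries. That count was not made for genes outside the members. NR5A2 was higher at high dose in Bupleuri Radix (12.1 ± 0.48 CPM, adjusted p = 0.00032), Cimicifugae Rhizoma (11.2 ± 0.95 CPM, adjusted p = 0.0082) and Zizyphi Fructus (11.5 ± 1.1 CPM, adjusted p = 0.021). In Cimicifugae Rhizoma and Zizyphi Fructus the call was lost without vehicle replicate 1 (adjusted p = 0.092 and 0.39 at most over left-out libraries) or without replicate 3 of the high dose. From low to high dose NR5A2 passed in none of the 7 extracts in edgeR or DESeq2, with 1 at an unadjusted p under 0.05, Bupleuri Radix, which passed without the library that stands apart (adjusted p = 0.012). NR1H3 was lower than vehicle (50.7 ± 4.8 CPM) in Bupleuri Radix at 43.0 CPM and Aconiti Lateralis Radix Preparata at 41.7 CPM (adjusted p = 0.0016 and 0.00048) and higher in the Banhasasim-tang library at 64.6 CPM (adjusted p = 0.0023). HNF4G was lower than vehicle in that library (43.5 CPM against 55.6 CPM, adjusted p = 0.039), a call lost without vehicle replicate 2 or 3, with adjusted p up to 0.081. With only the compared groups fitted, 5 vehicle calls were lost: NR0B2 in Citri Unshius Pericarpium (adjusted p = 0.058), NR5A2 in Zizyphi Fructus (0.15) and, in Banhasasim-tang, NR0B2 (0.12), NR1H3 (0.28) and HNF4G (0.22).

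Extracts of a set were then compared at their high doses, which are unequal for the pairs with Coptidis Rhizoma and Bupleuri Radix, so those values stand side by side and the dose is part of the difference. Of 31 tests, 9 passed, and 14 did so without the library that stands apart. The shares of all genes below are with all libraries, so the 14 has none beside it. Coptidis Rhizoma against Zizyphi Fructus held 4 of the 9, the genes that also moved from its low dose: NR5A2 at 26.9 CPM against 11.5 CPM, NR1H4 at 0.040 CPM against 0.464 CPM, NR1H3 at 36.7 CPM against 44.9 CPM and HNF4G at 43.8 CPM against 61.6 CPM, where 56.8% of all genes passed. Bupleuri Radix exceeded Aconiti Lateralis Radix Preparata in NR0B2 (8.13 CPM against 4.40 CPM, 0.89 ± 0.13, adjusted p = 1.6e-06) and in FGF19 (75.0 CPM against 44.1 CPM, 0.77 ± 0.10, adjusted p = 9.8e-08), where 21.1% passed. At equal doses, Citri Unshius Pericarpium was below Cimicifugae Rhizoma in FGF19 (39.2 CPM against 62.3 CPM, -0.67 ± 0.10, adjusted p = 2.6e-05), where 0.905% passed. Banhasasim-tang was above Yijung-tang in FGF19 (99.3 CPM against 58.4 CPM, 0.77 ± 0.14, adjusted p = 0.00047) and, as given above, below it in NR0B2, where 1.57% passed.

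Whether the change from low to high dose itself differed between the extracts of a set was tested as an interaction. Of 31 tests, 6 passed, or 10 without the library that stands apart. Shares of all genes are again with all libraries, so the 10 has none beside it. NR0B2 changed by 0.78 with Bupleuri Radix and by -0.24 with Aconiti Lateralis Radix Preparata, a difference of 1.02 ± 0.19 (adjusted p = 0.00021). FGF19 changed by 0.49 and -0.33 in the same extracts, a difference of 0.83 ± 0.14 (adjusted p = 4.8e-05). In that pair 8.52% of all genes differed. Between Coptidis Rhizoma and Zizyphi Fructus, where 42.9% differed, 4 members passed. NR5A2 changed by 1.46 with Coptidis Rhizoma and by 0.22 with Zizyphi Fructus, a difference of 1.24 ± 0.18 (adjusted p = 2.8e-07), and the differences of NR1H4, NR1H3 and HNF4G were -3.65, -0.43 and -0.43 (adjusted p = 0.0012, 0.00045 and 0.0072). In the pair of Citri Unshius Pericarpium and Cimicifugae Rhizoma 0.2% of all genes differed, and in that of Banhasasim-tang and Yijung-tang 0.462%. No member passed in those in edgeR, with 1 and 4 at an unadjusted p under 0.05, and DESeq2 called 0 and 1. The member DESeq2 called was NR0B2, with a difference of -1.17 ± 0.30 in edgeR, which did not pass with all libraries. Without the library that stands apart, FGF19 passed in edgeR for Citri Unshius Pericarpium and Cimicifugae Rhizoma (-0.53, adjusted p = 0.0016). For Banhasasim-tang and Yijung-tang, NR0B2 (-1.18), HNF4G (-0.43) and FGF19 (0.61) then passed as well. The same differences passed with only the compared groups fitted.

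The genes around the members were read from 9 lists, which overlap in part and were written with earlier results known, so their counts stand beside the 56.2% of all genes that passed from low to high Coptidis Rhizoma and a median log2 difference of -0.02 over all tested genes. Of 13 listed FXR targets outside the members, 7 were tested: 2 rose and 3 fell, with a median of -0.80. SDC1, a cell surface proteoglycan, fell to 98.8 ± 1.3 CPM at high dose, against 245 ± 0.11 CPM at low dose (-1.31 ± 0.12, adjusted p = 1.1e-12). PDK4, a brake on glucose oxidation, rose to 13.0 ± 0.073 CPM, against 7.60 ± 0.19 CPM (0.77 ± 0.12, adjusted p = 6.4e-07). SLC27A5 and BAAT, which activate bile acids and join them to amino acids, fell by 0.80 (adjusted p = 4.9e-05) and 0.87 (adjusted p = 0.011).

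Of 14 bile acid transport genes, 10 were tested; 2 rose, 4 fell, and the median was -0.49. ABCC4, an efflux pump, fell to 64.0 ± 3.6 CPM, against 107 ± 3.4 CPM at low dose (adjusted p = 9.3e-13). The uptake carriers SLCO4A1 and SLCO2B1 fell by 1.07 (adjusted p = 1.1e-11) and 1.59 (adjusted p = 0.0016), whereas ABCC2, an export pump, rose by 0.74 (adjusted p = 0.046). Of 15 synthesis and conjugation genes 8 were tested, 2 rising and 5 falling, with a median of -0.30. The rises were CYP39A1 (4.00 CPM against 1.502 CPM, adjusted p = 5.1e-07) and CYP27A1 (0.999 CPM against 0.491 CPM, adjusted p = 0.011), both hydroxylases, and HSD3B7, an enzyme that acts on the sterol ring, fell by 0.99 (adjusted p = 3.8e-07).

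Of the list of FGF19 receptors and membrane bile acid receptors, 7 of 9 were tested, 1 rising and 3 falling with a median of -0.05, and the 3 that fell were fibroblast growth factor receptors. FGFR4, the receptor FGF19 prefers, stood at 23.9 ± 0.010 CPM at high dose, against 93.8 ± 2.0 CPM at low dose and 113 ± 6.7 CPM in vehicle, a log2 difference of -1.97 ± 0.16 from low dose (adjusted p = 8.9e-14). FGFR3 fell by 1.34 (adjusted p = 1.6e-08) and FGFR2 by 1.10 (adjusted p = 4.1e-20). GPBAR1, the membrane bile acid receptor also called TGR5, is the 1 that rose, at 1.34 ± 0.012 CPM against 0.309 ± 0.060 CPM. It passed the filter on low counts only with both high-dose libraries in, so its call is no support for a difference.

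Of 12 LXR targets 9 were tested, 5 rising and 2 falling with a median of 0.79. Of the LXR genes themselves, NR1H3 was lower at this dose. NR1H2, the LXR-beta gene, was higher, at 48.8 CPM against 28.8 CPM at low dose (0.76 ± 0.15, adjusted p = 2.4e-05). The cholesterol exporter ABCG1 rose to 56.7 ± 0.62 CPM, against 5.53 ± 0.36 CPM at low dose (3.36 ± 0.17, adjusted p = 3.7e-20), and medium dose stood at 11.2 CPM. SMPDL3A, a secreted phosphodiesterase, rose by 1.64 (adjusted p = 1.3e-12) and the exporter ABCA1 by 0.95 (adjusted p = 2.2e-09), whereas SCD, a fatty acid desaturase, fell by 0.93 (adjusted p = 6.2e-17). Of 14 PXR targets 8 were tested, 4 rising and 2 falling with a median of 0.36: CYP2B6 rose by 0.73 (adjusted p = 0.0019) and CYP3A5 by 0.42 (adjusted p = 4e-07), both drug-metabolising P450 enzymes, and CES2, a carboxylesterase, fell by 0.33 (adjusted p = 3.2e-05).

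Of 42 other nuclear receptor genes 27 were tested, 10 rising and 7 falling, with a median of 0.06. The clock receptors NR1D1 and NR1D2 rose by 1.5 (adjusted p = 4.5e-07) and 1.47 (adjusted p = 4.9e-20), NR1D2 to 135 ± 0.80 CPM against 48.5 ± 0.89 CPM, and RORA, which acts on the same sites, by 1.53 (adjusted p = 5.5e-10). ESR2, the estrogen receptor beta gene, was lower, near the floor, at 0.144 CPM against 0.462 CPM (adjusted p = 0.036). Among 15 tested of 17 intestinal transcription factors 4 rose and 6 fell, with a median of 0.05. KLF4, a differentiation factor, rose to 46.5 ± 0.52 CPM against 7.65 ± 0.51 CPM (adjusted p = 7.4e-25), FOXA3 by 1.58 and PROX1 by 1.25 (adjusted p = 2.3e-15 and 1.8e-08), while CDX1, a gut identity factor, fell by 2.06 (adjusted p = 3.4e-06). Of 12 genes whose products SHP is known to work with, 3 rose and 5 fell, with a median of -0.21. SIRT1, a deacetylase, rose by 0.76 (adjusted p = 5.3e-11), and the demethylase gene KDM1A and the remodelling ATPases SMARCA2 and SMARCA4 fell by 0.56, 0.72 and 0.75 (adjusted p = 1.4e-12, 5.8e-16 and 6.3e-16).

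**Figure D5:**
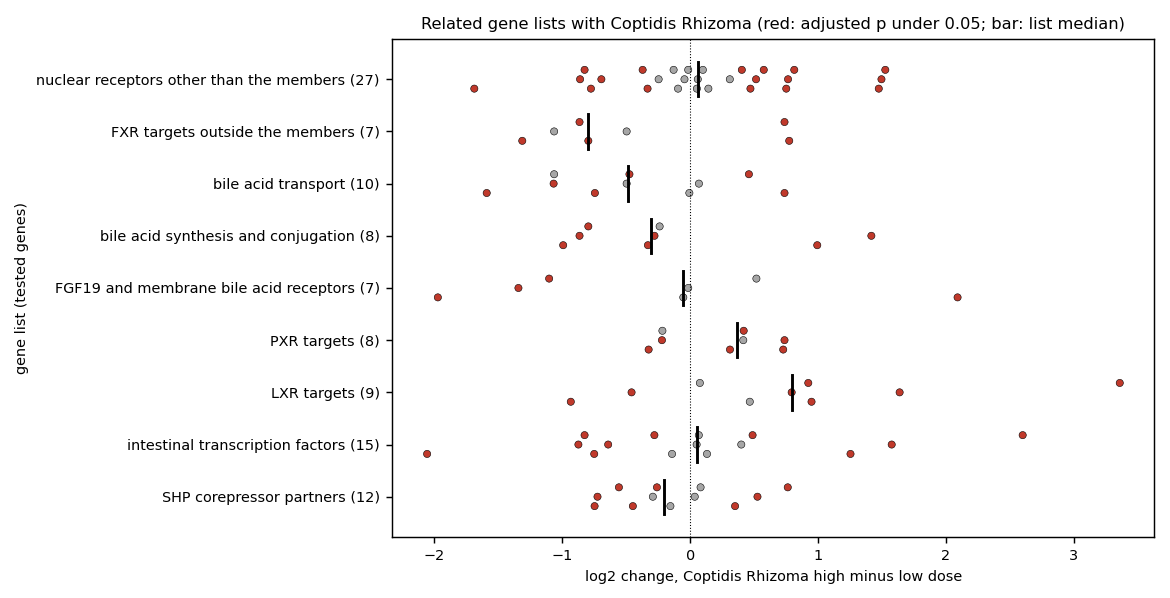
Log2 difference of high minus low dose of Coptidis Rhizoma (horizontal axis) for every tested gene of 9 lists, with the number tested in brackets; red points passed at an adjusted p under 0.05 and black bars are list medians. Medians run from -0.80 for the FXR targets to 0.79 for the LXR targets.

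Genes whose group means followed NR0B2 most closely depended on whether Coptidis Rhizoma was included. Over all 25 groups those nearest by Pearson's r of log2 CPM included ZNF488 (0.979), SQLE (0.977) and SFN (0.974). These 3 were low at high Coptidis Rhizoma: SQLE, of cholesterol synthesis, had 252 CPM there against 724 CPM at low dose, ZNF488 3.14 CPM against 22.2 CPM, and SFN 37.8 CPM against 106 CPM. With the 3 Coptidis Rhizoma groups left out, the nearest over 22 groups were HSD17B2 (0.806), TRAPPC3 (0.769), SFN (0.738), ACTR1A (0.727) and GPATCH3 (0.717), and SFN was near in both. Among the members, r with NR0B2 was -0.838 for NR5A2 and 0.832 for NR1H4 over 25 groups, and 0.0994 and 0.317 over 22. These values describe group means that share libraries and the vehicle cells, and the first set rests on Coptidis Rhizoma.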

How the data were processed

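HT29 RNA was sequenced in 60 libraries with a strand-keeping mRNA kit and 100 bp paired reads, per the labels' protocols. The deposited values are expected counts per gene that the authors made with RSEM 1.3.3 after STAR 2.7.3a, Trim Galore 0.6.5 and FastQC 0.11.9, on GRCh38, per the submitters' processing notes; the annotation and the strand setting are not given in the sources used here. They are not scaled to depth. Of 270 columns, 60 matched these samples and 210 were not used. Values were rounded to whole counts (91.0% were whole already).

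In edgeR 4.0.16 (R 4.3.3), genes that reached 0.5 CPM in 3 or more libraries were kept, scaled by TMM and fitted with 1 mean per extract and dose, 25 groups in all, by a quasi-likelihood negative binomial model with 35 residual degrees of freedom and a biological coefficient of variation of 7.83%. P-values were adjusted by Benjamini-Hochberg over all 16022 tested genes of a comparison, with a threshold of 0.05. SE is the log2 difference over the square root of F. CPM values are given with the SD over libraries. Counting intervals are 95% exact intervals of a ratio of summed counts; intervals and floors cover counting error only. Coordinates come from GENCODE 29. The method was also run on simulated counts, whose outcome is not given here. These had the same spread for all genes, no single-library group and no changed gene near the floor, so they do not cover such cases.

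The members and gene lists were chosen with earlier results of these data known. Named genes are all members; up to 4 genes per list past the threshold from low to high Coptidis Rhizoma with the largest change; and the 5 genes most like NR0B2 over 25 groups and over 22. Some of the genes this rule names are not reported here. Medium against low dose of Coptidis Rhizoma was added for FGF19 after its values were seen. Alternatives were DESeq2 1.42.0, RLE scaling, other filters, mitochondrial genes left out, groups fitted alone, a replicate block, and each library left out.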

Additional observations from a re-analysis of the deposited data

Results flagged for a closer look

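For 6 members the change from low to high dose differed between the extracts of a set, by an interaction test in edgeR over all genes. Bupleuri Radix exceeded Aconiti Lateralis Radix Preparata in the change of NR0B2 by 1.02 and in that of FGF19 by 0.828 on the log2 scale. Over the libraries left out in turn these ranged from 0.904 to 1.27 and from 0.751 to 0.932, and both passed each time. Between Coptidis Rhizoma and Zizyphi Fructus the change differed by 1.24 for NR5A2, -3.65 for NR1H4, -0.43 for NR1H3 and -0.432 for HNF4G. All 4 also passed with any 1 library left out, with adjusted p of at most 0.04. NR1H4 rests on 2 counts at high Coptidis Rhizoma. The high doses within both pairs are unequal in µg/mL, and the part of dose in these differences was not tested.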

How the results depend on the processing

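The counts of members past the threshold moved by more than 1.5 times under 2 settings. Leaving out the Zizyphi Fructus library that stands apart gave 9 in place of 5 from low to high dose of the other 7 extracts, 25 in place of 14 against vehicle, 14 in place of 9 between extracts of a set and 10 in place of 6 for the interaction. Fitting only the compared groups gave 9 in place of 14 against vehicle. From low to high dose it covered 6 extracts, since Banhasasim-tang has 1 library a dose, and gave 7. With all groups fitted, those 6 extracts held only the 2 calls of Bupleuri Radix. Fitted alone, the counts between extracts of a set and for the interaction also rose, by no more than 1.5 times. The cause was not tested. The share of all genes that passed under these 2 settings is not given here, so the changed counts say nothing particular about the members. With Coptidis Rhizoma the count was 3 to 5 of the other members in place of 4 under the settings tried, with 3 where the filter left NR1H4 out and 5 with no filter, where NR1I2 passed too. With 1 library left out the counts were 4 for Coptidis Rhizoma in both comparisons, 5 to 7 from low to high dose of the other extracts, 12 to 15 against vehicle, 9 between extracts and 6 for the interaction.

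Of 43 called member differences, 6 were lost under some other setting and 5 without some library, and none changed sign. The 3 calls from low to high dose of Banhasasim-tang had no library that could be left out. Its other calls were tried only without a library of vehicle or Yijung-tang. The 43 also include the FGF19 rise from low to medium Coptidis Rhizoma, a comparison added after its values were seen. The fitted difference of NR0B2 with Coptidis Rhizoma ranged from -5.73 to -4.63 from low dose and from -6.04 to -4.94 from vehicle. Pairing by library number was weak at most. Deviations of same-numbered libraries correlated at -0.02 to 0.13 in the 4 extracts with 3 pairs. By extract, same against other numbers gave 0.02 to 0.13 against -0.13 to 0.03 in Citri Unshius Pericarpium and 0.05 to 0.12 against -0.10 to 0.02 in Cimicifugae Rhizoma. Bupleuri Radix had 0.04 to 0.13 against -0.09 to 0.02, and Aconiti Lateralis Radix Preparata -0.02 to 0.01 against -0.03 to 0.02. With a replicate block the counts were 4, 4, 6, 15, 10 and 6 for Coptidis Rhizoma against low dose and vehicle, the other extracts against low dose and vehicle, the extract pairs and the interaction. FGF19 from low to high dose of Aconiti Lateralis Radix Preparata passed with the block (adjusted p = 0.045) and with the block within sets (adjusted p = 0.035). Of 18 counts of list genes by direction, 6 moved by over 1.5 times under some setting. At this depth, genes near 0.5 CPM such as SLC51A and SLC51B allow only large differences to be seen.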
